A study of Homo sapiens with 6 samples.

Results

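The cytoplasmic ribosome is built from ribosomal RNA and the protein products of the RPL, RPLP, RPS and RPSA genes, and 78 of these genes were read on arrays of the Hodgkin lymphoma cell line L1236. A gene was taken when a row of the deposited gene table named exactly 1 symbol, and that symbol was RPL or RPS with a number (and for some A, L or X), RPLP0 to RPLP2, or RPSA. These symbols covered 122 rows, and the row with the highest mean stood for each gene. The 78 genes, 47 of the large and 31 of the small subunit, were part of 18605 genes in the table. The rule used symbols and mean intensity and no difference between arrays, but it was set with earlier results of these data known. RPL23A, RPL32, RPS26 and RPS26L fit the pattern as symbols but shared their rows with another symbol, so they were not members.

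L1236 grew out of Hodgkin tumour cells, which descend from B cells. It was studied with leukotriene D4 (LTD4), an inflammatory lipid of the arachidonic acid pathway with receptors coupled to G proteins. The 6 groups were cells left untreated, cells given 0.1% methanol (the vehicle) and cells given LTD4 at 100 nM, each at 1 h and at 8 h, and each group was 1 array. Cells for LTD4 and for methanol were spun down and taken up in medium without serum. The labels do not give the medium of the untreated cells, so methanol, serum and handling cannot be told apart in any comparison with them. With 1 array a group, a difference between 2 arrays had no replicate error and no test. The array reads a whole culture, in which fewer cells making an RNA and less RNA per cell cannot be told apart.

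Messenger RNAs of ribosomal proteins are among the most abundant of a growing cell. In vertebrates they begin with a cytosine followed by a run of pyrimidines, the 5′ terminal oligopyrimidine or TOP motif. Through it the mTOR kinase and the RNA-binding protein LARP1 set how strongly these messages are translated and how stable they are when growth factors or nutrients are withdrawn. Several of the genes also carry small nucleolar RNAs, guides for ribosomal RNA modification, in their introns.

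The start sites of the genes with the greatest vehicle differences, of RPS6 as a textbook TOP gene, and of the RPL10L and RPS27L paralogues show how far this motif was present. Each line gives 30 bases around the annotated start from RefSeq (GRCh38.p14), read along the gene's strand, with 15 bases before the start. Capitals mark the longest unbroken run of C or T.
RPS29 (chr14:49598696-49598725, minus strand): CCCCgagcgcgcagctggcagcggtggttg
RPLP1 (chr15:69452803-69452832, plus strand): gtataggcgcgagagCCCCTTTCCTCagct
RPSA (chr3:39406705-39406734, plus strand): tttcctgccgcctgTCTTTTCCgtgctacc
RPL11 (chr1:23691791-23691820, plus strand): cggaagctccgCTTTCTCTTCCTgctctcc
RPS21 (chr20:62387088-62387117, plus strand): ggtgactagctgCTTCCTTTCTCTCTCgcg
RPL31 (chr2:101002274-101002303, plus strand): acaatccttcgcgCTCTTCCTTTCCaactt
RPL19 (chr17:39200308-39200337, plus strand): gagcgagCTCTTTCCTTTCgctgctgcggc
RPS6 (chr9:19380222-19380251, minus strand): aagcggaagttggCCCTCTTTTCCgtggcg
RPL10L (chr14:46651767-46651796, minus strand): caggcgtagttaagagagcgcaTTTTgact
RPS27L (chr15:63157463-63157492, minus strand): aagttgatgccgagcgcagatcgCTTgcag

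A run of at least 7 pyrimidines on the gene's strand was found in such windows of 53 of the 62 members that matched the RefSeq promoter table, or 85.5%. The same was true of 24.7% of 15781 other protein-coding genes. The median longest run was 11 bases in members and 5 in the others. Of the members, 79.0% had a C at the annotated start, against 12.5% of the other genes. The shares with a long run were alike for the large subunit (84.2%) and the small subunit (87.5%). Shorter runs were found in RPL3, RPL6, RPL10L, RPL12, RPL15, RPL27, RPS4X, RPS27L and RPS29. A window without a long run says only that the letters are absent at that annotated start.

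**Figure D1:**
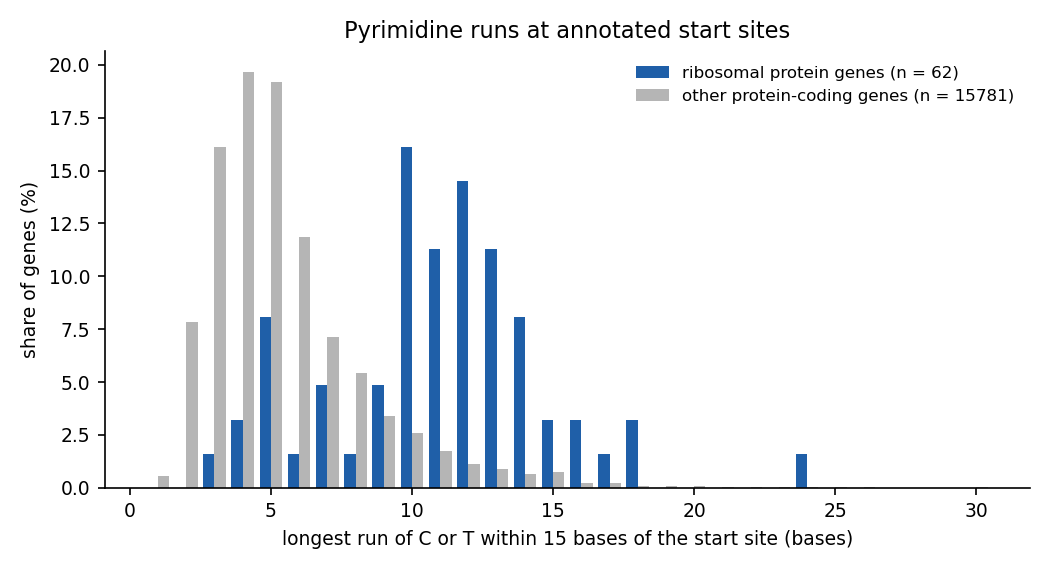
Share of genes (%, vertical axis) by the length in bases of the longest unbroken C or T run within 15 bases of the annotated start (horizontal axis), for 62 ribosomal protein genes (blue) and 15781 other protein-coding genes (grey). The members centre on a run of 11 bases and the other genes on 5.

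Most of the genes were bright. A gene was tested when its highest array reached an intensity of 1263, the 95th percentile of 45 control probesets that match no human sequence, and 71 of the 78 members did so (41 large, 30 small). Of these, 69 were above it on every array. Of the 71, 62 lay among the brightest 25% of all 3584 tested genes. The 7 below the limit on all 6 arrays were RPL4, RPL13, RPL22, and the paralogues RPL3L, RPL10L, RPL39L and RPS27L. RPL4, a core protein of the large subunit, read between 621 and 865, so only an upper bound is known for it. RPL34 passed the limit on only 2 arrays (methanol and LTD4 at 8 h), and RPS29 on only 2 (untreated at 1 h and at 8 h). For 16 members the row lay on another chromosome than the gene, in a span under 1000 bases, among them RPL5, RPL10, RPL41 and RPS2. These rows may read the gene together with a near-identical copy. The row used for RPS27 was also short, 255 bases, though on the gene's chromosome. It began at chr1:37794435, while another RPS27 row began at chr1:152229853, so it may read a copy too. Of the 78 rows, 27 carried the deposited flag for cross-hybridization.

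Array-wide levels moved as well, and the members have to be read against them. The median intensity of all probesets was 154 to 188 on the untreated arrays and 210 to 228 on the other 4. The median of the 71 members moved less, from 5571 on the methanol array at 1 h to 6406 on the untreated array at 1 h. Differences below are on the log2(intensity + 16) scale, and values after centring have the median of each array's tested genes subtracted. Of 7 Hodgkin cell markers 4 were tested (CCL17, TNFRSF9, IRF4 and FSCN1) while TNFRSF8, which encodes CD30, was below the limit on all arrays. Their summed intensity was 11171 to 14044. Of the B cell markers on the array only PAX5 passed the limit, and none of 17 markers of T cells, myeloid cells, red cells, epithelium or stroma did.

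Ribosomal protein genes were steadier across the 6 arrays than tested genes in general. The ratio of a member's highest to its lowest array had a median of 1.30 and was under 1.5 for 60 of 71 members (84.5%), against a median of 1.45 and 59.8% for all tested genes and 1.37 and 76.7% for the other genes among the brightest 25%. It ran from 1.07 for RPL3, a protein near the peptidyl transferase centre, to 2.69 for RPS29, whose lower 4 arrays were under the background limit. RPL3 read 6434 untreated, 6106 with methanol and 6336 with LTD4 at 1 h, and 6213, 6185 and 6510.5 at 8 h. No array stood apart for RPL3. The methanol array at 1 h was the lowest of the 6 for 40 of 71 members (56.3%), and it was also the lowest for 45.4% of all tested genes.

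**Figure D2:**
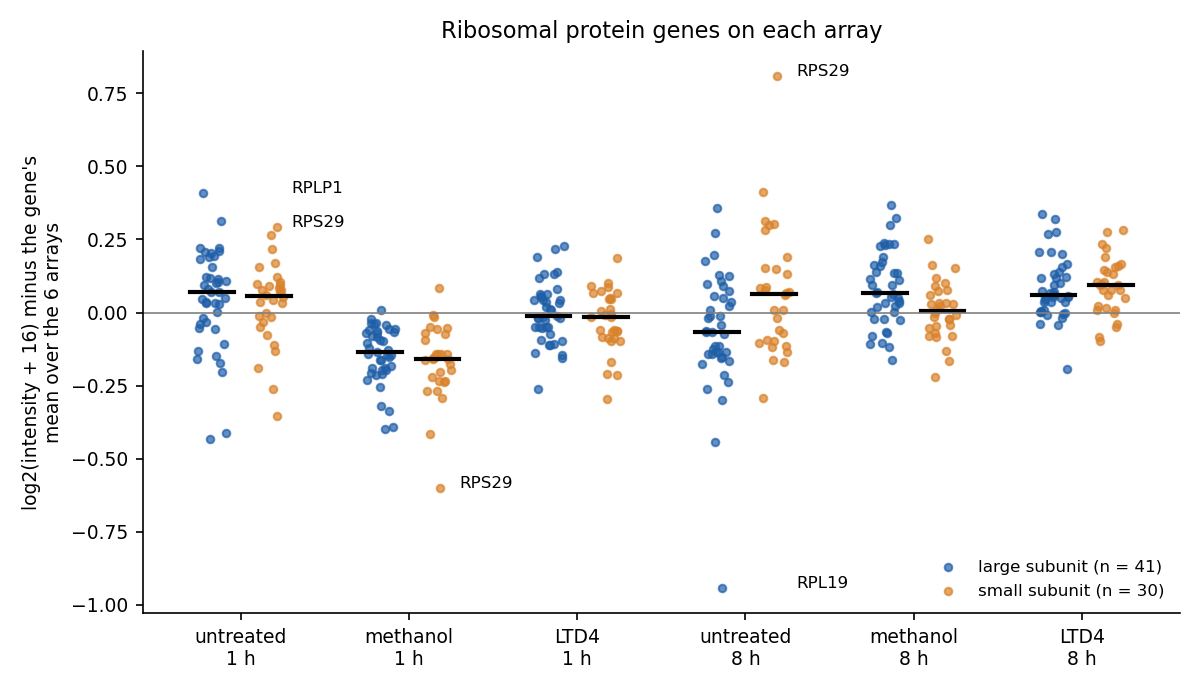
Log2(intensity + 16) of each tested ribosomal protein gene minus its own mean over the 6 arrays (vertical axis, log2), by array (horizontal axis), with large subunit genes in blue (n = 41), small subunit genes in orange (n = 30) and black bars for the medians. Both subunits sit low on the methanol array at 1 h, and RPS29 and RPL19 lie far from the others on the untreated array at 8 h, in opposite directions.

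The comparison of methanol with untreated cells sets the vehicle and its medium beside cells left alone. Over both times 1 member, RPS29, passed the test in the fit of all 3584 genes, and it entered that fit only through its untreated arrays, where it was high. Its call is therefore given as a description and supports nothing about the members. In an additive limma model of agent and time, 1 of 71 members was lower and 0 were higher, where 0.363% of all tested genes were called lower and 1.9% higher. Unadjusted, 5 members had p under 0.05. The share of all tested genes is not given beside this count, so it only describes the members. The median member difference was -0.05, against 0.03 for all tested genes, with -0.03 for the large and -0.14 for the small subunit. That median turned to 0.01 under quantile normalization and cyclic loess, to 0.05 without untreated at 1 h and to 0.02 without methanol at 1 h. It was -0.16 without untreated at 8 h and -0.18 without methanol at 8 h.

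RPS29, a zinc-binding protein in the head of the small subunit, read 1507 untreated, 803 with methanol and 997 with LTD4 at 1 h. At 8 h it read 2159, 1049.8 and 1238 in that order. Both untreated arrays lay above all 4 arrays of cells in serum-free medium, and the untreated arrays alone passed the background limit. Taking the methanol arrays at the limit, RPS29 was at least 1.42-fold higher untreated over both times, at least 1.19-fold at 1 h and at least 1.70-fold at 8 h. The limma fit, which takes the values under the limit as they stand, gave -0.96 (SE 0.22, adjusted p = 0.00122). The call was lost when either methanol array was left out, at -0.98 and -0.95, where the remaining methanol array is assumed to vary like the others. RPS29 also had one of the shortest pyrimidine runs among the start sites shown above, 4 bases.

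The stalk of the large subunit recruits translation factors to the ribosome, and its proteins did not share a direction. RPLP1 read 10276 untreated, 5898 with methanol and 6464 with LTD4 at 1 h, and 9936, 7144 and 7762 at 8 h. Both untreated arrays were again the highest. Its fitted difference was -0.64 (limma adjusted p = 0.115), and after centring it was -0.67 and passed the threshold (limma adjusted p = 0.0068). RPLP2, its partner in the stalk, differed by 0.14 at 1 h and 0.38 at 8 h. RPLP0, the base of the stalk, differed by -0.13 and 0.00.

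RPSA, a small subunit protein also known as the laminin receptor, read 6406 untreated, 4499 with methanol and 4754 with LTD4 at 1 h, and 7339.5, 5356 and 5203 at 8 h. RPS21, another small subunit protein, read 2249.7, 1604 and 1901 at 1 h and 2669, 2111 and 2502 at 8 h. Both untreated arrays of RPSA were above the other 4. The untreated array of RPS21 was the highest at each time, but its LTD4 array at 8 h lay above the untreated array at 1 h. Their fitted differences of -0.48 (limma adjusted p = 0.385) for RPSA and -0.41 for RPS21 did not pass. After centring they were -0.52 (limma adjusted p = 0.0298) and -0.45 (limma adjusted p = 0.0388).

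RPL11, which with RPL5 and the 5S ribosomal RNA can bind the p53 regulator MDM2, read 7188 untreated, 4573 with methanol and 5231 with LTD4 at 1 h. At 8 h it read 6532, 5941 and 5609. The gap was wide at 1 h, -0.65, and narrow at 8 h, -0.14. RPL5 differed by -0.08 and 0.12, read by a row on another chromosome. Its unflagged row on its own chromosome differed by 0.09 and 0.20. RPL23, also able to bind MDM2, lay on the opposite side, with 3121 untreated, 3814 with methanol and 4621 with LTD4 at 1 h and 3729.7, 5196 and 5263 at 8 h. RPL31, a protein near the exit of the peptide tunnel, read 1445, 1802 and 2124 at 1 h and 1607, 2492 and 2326 at 8 h. For RPL31 both untreated arrays were below the other 4, and for RPL23 the untreated array was the lowest at each time. Neither passed the threshold in the deposited scaling (fitted differences of 0.38 and 0.47). RPL23 was called higher with quantile normalization (limma adjusted p = 0.0443) and with cyclic loess (limma adjusted p = 0.0434), where RPL11 was not called. After centring, RPL31 was called higher at 0.44 (limma adjusted p = 0.0402) and RPL11 lower at -0.43 (limma adjusted p = 0.0331).

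The 6 members called after centring were RPL31 upward and RPS29, RPLP1, RPSA, RPL11 and RPS21 downward, where 5.66% of all tested genes were called higher and 5.44% lower in that fit. RPS29 was the only member called in both. Over 16 alternative settings the limma adjusted p ran from 0.000414 to 0.0905 for RPS29, from 0.00257 to 0.546 for RPLP1 and from 0.0298 to 0.987 for RPSA. For RPS21, RPL31 and RPL11 it ran from 0.0388, 0.0318 and 0.0331, each up to 0.996.

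**Figure D3:**
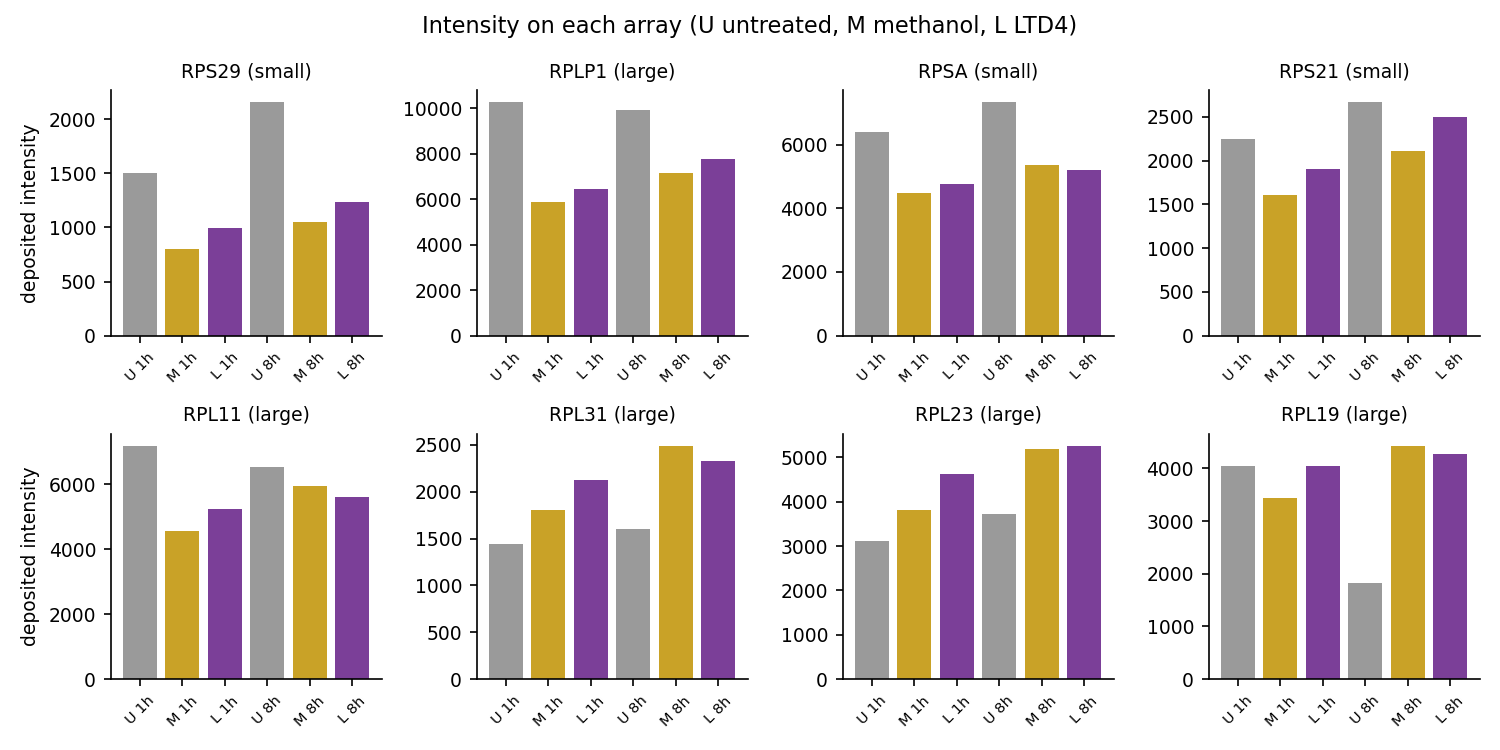
Deposited intensity (vertical axis, linear, from 0) of 8 ribosomal protein genes on each array (horizontal axis: U untreated in grey, M methanol in gold, L LTD4 in purple, at 1 h and 8 h), 1 bar for each array and so no error bars. The untreated bars are the higher ones at each time for RPS29, RPLP1, RPSA, RPS21 and RPL11 and the lower ones for RPL31 and RPL23, and RPL19 has a single low bar, 1834, on the untreated array at 8 h.

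At 1 h alone, methanol lay below untreated for 59 of 71 members and above for 12, with a median of -0.19. All tested genes had a median of -0.21, and 77.8% of them were lower, so the members moved with the array. The large subunit had a median of -0.23 and the small subunit one of -0.19. A difference of at least 1.5-fold downward was seen in 3 members (RPS29, RPLP1 and RPL11, the methanol value of RPS29 being under the background limit), against 8.09% of all tested genes, and upward in 0, against 1.65%. The highest member was RPS14 at 0.44, the small subunit gene lost in the 5q deletion syndrome. It read 3982 untreated, 5399 with methanol and 5364 with LTD4 at 1 h, and 4746, 5196 and 6169 at 8 h, so its untreated array was the lowest at both times.

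At 8 h the members lay lower than tested genes as a whole. Methanol was above untreated for 42 and below for 29 of 71, with a median of 0.06, while 83.7% of all tested genes were higher, with a median of 0.27. The median was 0.16 in the other genes among the brightest 25%. Of the large subunit genes 28 of 41 were higher (median 0.15), and of the small subunit genes 14 of 30 (median -0.05). After centring, the medians were -0.13 and -0.33, and 28 of 30 small subunit genes were lower. The difference between the subunits was not tested, since members are not replicates of a condition. A rise of at least 1.5-fold was seen in 3 members (RPL19, RPL26 and RPL31), against 15.1% of all tested genes, and a drop of that size in 1 (RPS29, again to under the limit), against 0.307%.

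RPL19, which forms a bridge between the subunits, read 4040.25 untreated, 3439 with methanol and 4039 with LTD4 at 1 h, and 1834, 4433 and 4281 at 8 h. A single array, untreated at 8 h, set its difference of 1.27. Without that array its fitted difference went from 0.52 to -0.16. RPL26, a protein by the tunnel exit, read 2214, 1959 and 2539 at 1 h and 1592, 2553 and 2317 at 8 h. It too was lowest on the untreated array at 8 h, and its difference there was 0.68.

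Across both times, 31 of 71 members (43.7%) were lower with methanol at 1 h and higher at 8 h, the order shown by 62.3% of all tested genes. Another 28 (39.4%) were lower at both times, against 15.5% of all tested genes. These were 13 of 41 large subunit genes and 15 of 30 small subunit genes, among them RPS2, RPS3, RPS6, RPS16 and RPS18. RPS6, the ribosomal protein phosphorylated by S6 kinases, differed by -0.19 and -0.15. RPS3, which lines the entry of the messenger RNA channel, read 15188, 13295 and 13379 at 1 h and 15473, 12745 and 13948 at 8 h, with both untreated arrays highest. The untreated array at 8 h was the highest of the 6 for 10 of 30 small subunit genes (33.3%) and 3 of 41 large ones (7.32%), against 6.58% of all tested genes. The untreated array at 1 h was the highest for 3 of 30 small (10.0%) and 13 of 41 large ones (31.7%), against 25.2% of all tested genes. These shares carry no test.

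**Figure D4:**
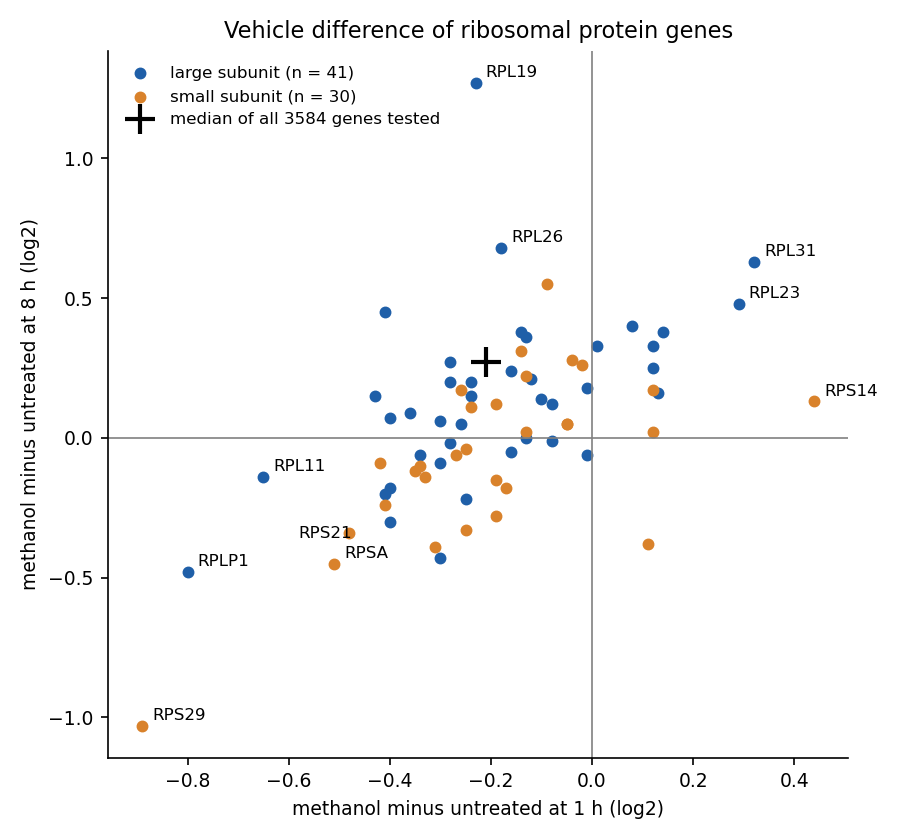
Methanol minus untreated at 1 h (horizontal axis) against the same difference at 8 h (vertical axis), both in log2 units, for 41 large subunit (blue) and 30 small subunit (orange) genes, 1 point for each gene, with a cross at the medians of all 3584 tested genes. Most points lie left of 0 and below the cross, and RPS29, RPLP1 and RPL19 lie at the edges. The methanol arrays of RPS29 were under the background limit.

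LTD4 against its vehicle is the comparison of the agent itself, and no member passed its test. In limma, 0 of 71 members were higher or lower over both times, and 0% of all tested genes were called in either direction. Unadjusted, 0 members and 13 of 3584 genes had p under 0.05. The fitted differences were small and mostly of one sign: 66 of 71 members were above 0, with a median of 0.09, against 55.2% and 0.01 for all tested genes and 70.7% and 0.04 for the other genes among the brightest 25%. After centring, 63 of 71 were above 0, with a median of 0.08. The median was 0.03 under quantile normalization and under cyclic loess, 0.01 without methanol at 1 h and 0.17 without methanol at 8 h. In the deposited scaling it was 0.07 for the large and 0.11 for the small subunit. RPS29 and RPL34 are not ranked here, since most of their arrays were under the background limit. The greatest of the other members were 0.24 for RPS21 and 0.22 for RPS15A, and among the lowest were -0.05 for RPLP0 and -0.03 for RPS23, each with a limma adjusted p of 1.0.

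At 1 h, LTD4 was above methanol for 66 of 71 members, with a median of 0.14. All tested genes were higher in 82.1% of cases, with a median of 0.11, and after centring the members' median was 0.02. No member differed by 1.5-fold, where 0.725% of all tested genes were higher and 0.223% lower by that much. RPL26 had the greatest difference, 0.37, and RPS9, a small subunit protein by the messenger RNA entry, the next at 0.34. RPS9 read 4001 untreated, 4317 with methanol and 5461 with LTD4 at 1 h and 5912, 4541 and 4822 at 8 h. Its LTD4 array was the highest at 1 h and lay between the other two at 8 h.

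At 8 h most members lay above vehicle while most tested genes lay below it. LTD4 was above methanol for 43 of 71 members, with a median of 0.06, whereas 30.1% of all tested genes were higher, with a median of -0.10. The small subunit had 22 of 30 genes higher (median 0.09) and the large subunit 21 of 41 (median 0.01). After centring, all 30 small subunit genes tested and 30 of 41 large subunit genes were higher. Again no member reached 1.5-fold, which 0.0279% of all tested genes did upward and 0.53% downward. RPS14, RPS21 and RPS19, the last a gene mutated in Diamond-Blackfan anaemia, had the greatest differences, 0.25, 0.24 and 0.24. The lowest were RPL15 at -0.22, RPL21 at -0.19 and RPL36A at -0.16. LTD4 was above methanol at both times for 41 of 71 members (57.7%), against 19.4% of all tested genes.

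No member passed the test of time. In limma, 0 of 71 members were higher or lower at 8 h than at 1 h, where 0.949% of all tested genes were called higher and 0.809% lower. Unadjusted, 1 member had p under 0.05, again a count without the share of all tested genes beside it. The median was 0.08, against 0.10 for all tested genes. With RPS29 and RPL34 again not ranked, the greatest fitted differences were 0.34 for RPS21 (limma adjusted p = 0.636), 0.30 for RPL23 and 0.25 for RPL31, and the lowest -0.23 for RPL19, -0.20 for RPL15 and -0.09 for RPL5. By agent, the median of 8 h minus 1 h was -0.03 untreated, 0.20 with methanol and 0.10 with LTD4, against -0.15, 0.33 and 0.12 for all tested genes. With methanol all 41 tested large subunit genes and 26 of 30 small subunit genes were higher at 8 h, where 92.4% of all tested genes were. After centring, 29 of those 41 and 26 of those 30 were lower.

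Small nucleolar RNAs encoded inside members read higher with methanol, and most of their hosts did not. The table held 26 rows of such RNAs within the rows of 13 members, and 17 of the 26 were under the background limit on all 6 arrays. At 8 h all 26 were higher with methanol than untreated, with a median of 0.86, and 19 were higher by at least 1.5-fold. Of all tested genes 83.7% were higher, with a median of 0.27, and 15.1% by at least 1.5-fold, and the median of all probesets was 154 untreated and 223 with methanol. Of their 13 hosts 5 were higher, with a median of -0.01. The host RPL13 is counted here although it was under the limit on every array. At 1 h the medians were 0.30 for the small nucleolar RNAs, with 22 of 26 higher, and -0.19 for the hosts, with 3 of 13 higher, among them RPL13. Of all tested genes 77.8% were lower there, while the median of all probesets was 188 untreated and 228 with methanol. Most hosts were brighter than the small nucleolar RNAs inside them, and brightness was not matched. The other 9 small nucleolar RNAs, in 6 hosts, passed the limit on at least 1 array. The limma fit called 5 of these 9 higher and 0 lower, where 1.9% of all tested genes were called higher. Of the 5, SNORD54, SNORD68, SNORD43 and SNORD15B were under the limit on both untreated arrays, and so passed the filter only through arrays where they were high. That count is a description and supports nothing further.

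SNORD54, in RPS20, read 257 untreated, 604 with methanol and 925 with LTD4 at 1 h, and 291, 1728 and 899 at 8 h. Both untreated arrays were the lowest, and only methanol at 8 h was above the limit. With the untreated array taken at the limit, SNORD54 was at least 1.36-fold higher with methanol at 8 h. RPS20, a protein of the small subunit head, differed by -0.02 at 1 h and 0.26 at 8 h. SNORD35A, in RPL13A, read 1549 untreated and 3638 with methanol at 8 h, both above the limit, a difference of 1.22. RPL13A, also a part of the GAIT translational silencing complex, differed by -0.40 at 1 h and -0.30 at 8 h. SNORD33, in the same host, went from 6008 to 4744 at 1 h and from 6704 to 8966 at 8 h, and its fitted difference was 0.04. SNORD15B was at least 2.42-fold higher with methanol at 8 h, with a difference of -0.28 for its host RPS3. With LTD4 against methanol at 8 h, 23 of the 26 small nucleolar RNAs were lower, with a median of -0.29, and the hosts had a median of 0.02. All tested genes had a median of -0.10 there.

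**Figure D5:**
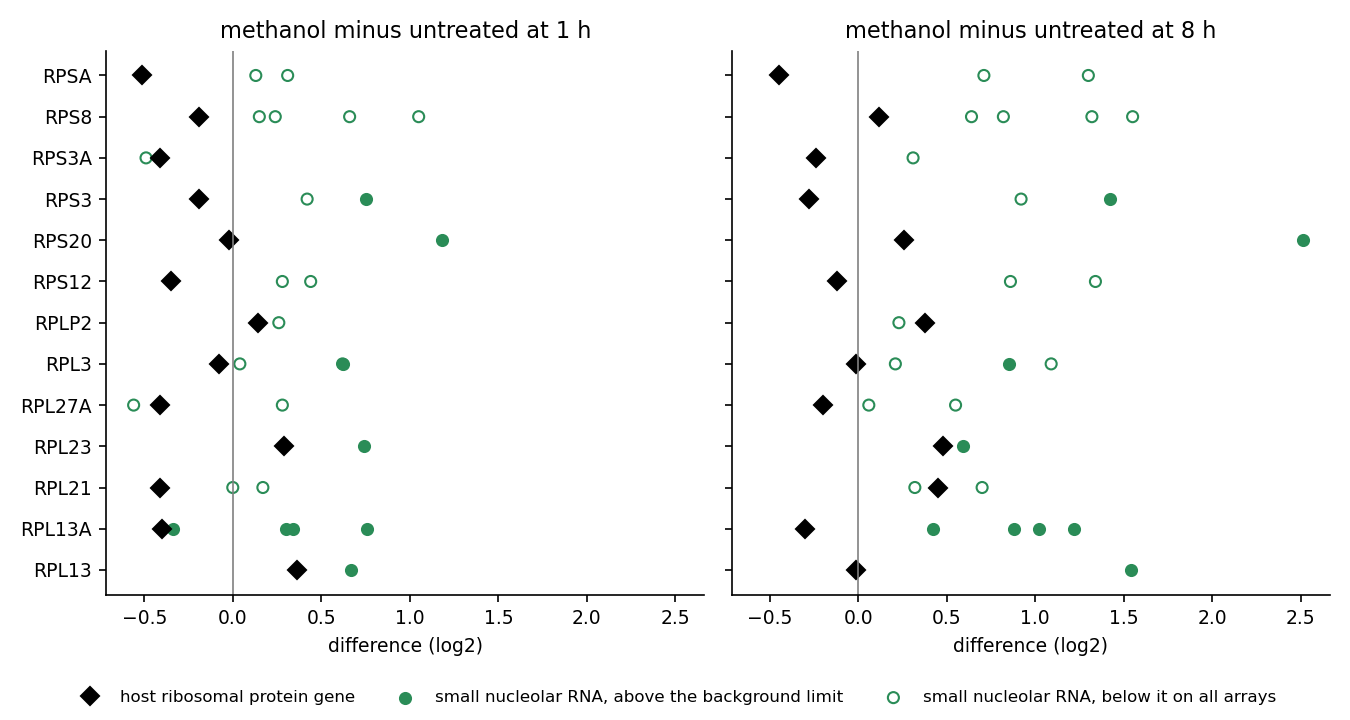
Methanol minus untreated at 1 h (left) and 8 h (right), in log2 units on the horizontal axis, for 13 host ribosomal protein genes (black diamonds, 1 line each) and the 26 small nucleolar RNA rows inside them (green circles, filled for the 9 above the background limit on any array, open for the 17 under it on all). At 8 h every circle lies right of 0, while 5 of the 13 diamonds do. The host RPL13 was itself under the background limit on every array.

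Genes around the pathway showed no calls in the deposited scaling. Of all tested genes, 0.949% were called higher and 0.809% lower for time, 1.9% and 0.363% for the vehicle, and 0% for LTD4. Each list was short, so 0 calls lies near those shares. Of other genes with TOP messages, 20 were tested, and 0 were called higher or lower for time, vehicle or LTD4. Their medians were -0.26 and 0.10 for methanol minus untreated at 1 h and 8 h. EEF2, the translocating elongation factor, read 8587 untreated, 5999 with methanol and 6623 with LTD4 at 1 h. At 8 h it read 8385, 6915 and 6239, and both untreated arrays were the highest. It differed by -0.40 for the vehicle (limma adjusted p = 0.552). After centring it differed by -0.43 and was called (limma adjusted p = 0.0444), where 5.44% of all tested genes were called lower. The greatest in the other direction was NPM1, a nucleolar chaperone, at 0.50 (limma adjusted p = 0.35). That value rested mostly on the untreated array at 1 h, which read 1725, while the others read between 2877 and 3537. The vehicle difference of NPM1 was 0.88 at 1 h and 0.11 at 8 h. The ribosomal protein genes outside the symbol rule that were tested had 0 calls. Among them, FAU, RPL36AL and RPL7L1 differed by -0.20, 0.09 and -0.33 for the vehicle. Both methanol arrays of RPL7L1, 876 and 1218, were under the background limit.

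Of the regulators of TOP messages 9 of 20 were tested with 0 calls. LARP1 differed by 0.52 between 8 h and 1 h (limma adjusted p = 0.167) and passed only after centring (0.43, limma adjusted p = 0.031). The share of all tested genes called in that centred fit is not given here. By agent the difference was 0.28 untreated, 0.87 with methanol and 0.41 with LTD4. The methanol array of LARP1 at 1 h, 1123, was under the background limit. Among the carriers that escort ribosomal proteins to the nucleus or to assembly, 3 of 10 were tested. GRWD1, a carrier of RPL3, differed by -0.38 for the vehicle (limma adjusted p = 0.583). It was called lower after centring (-0.42, limma adjusted p = 0.0378), where 5.44% of all tested genes were. Its methanol array at 1 h, 1052, was under the background limit. PDCD2, a carrier of RPS2, and LTV1, a small subunit assembly factor, differed by 0.39 and 0.32 with no call. Both untreated arrays of each were under the background limit, so these genes passed the filter only through arrays where they were high.

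Members were also sorted by their start site. Tested members with a run of at least 7 pyrimidines (50 genes) had medians of -0.21 and 0.05 for methanol minus untreated at 1 h and 8 h. The 7 tested members with a shorter run had medians of -0.24 and -0.01. For LTD4 minus methanol the medians were 0.13 and 0.06 with a long run and 0.07 and 0.11 with a short one.

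Separate rows of one gene that passed the limit mostly gave the same sign, but they are not independent readings. The unflagged row of RPL12 on its own chromosome read 403 to 659, under the limit on every array. The row used for RPL12, on another chromosome, had a mean of 9385. Most of them carried the flag for cross-hybridization, and the 3 rows of RPS18 held the same values on every array. An unflagged row of RPL41 differed by 0.32 for LTD4 minus methanol at 8 h, where the row used gave -0.11. For 20 symbols with several rows above the limit, the median range between rows was 0.03 for methanol minus untreated at 1 h and 0.10 at 8 h. The sign was the same in all rows for 17 of 20 symbols at each time. RPL41, read by 7 rows, had the widest range, 1.39 at 1 h, so its value of -0.01 depends on the row taken. Members read on their own chromosome (55 tested, RPS27 among them) and on another (16 tested) had medians of -0.23 and -0.16 at 1 h. At 8 h the medians were 0.05 and 0.10.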

How the data were processed

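RNA of 6 cultures was measured on gene arrays, 1 per group. The deposited table holds intensity values on a linear scale. The submitters' processing notes name RMA and Affymetrix Expression Console, while the table is named for PLIER. The sources used here do not give which of these made the intensities, how arrays were scaled, or the genome build. Values were taken as log2(intensity + 16), which understates changes of dim genes. Rows naming 1 symbol were kept, the brightest per gene. Genes whose highest array reached 10.32 on the log2 scale (3584 of 18605) entered a limma (3.58.1, R 4.3.3) model of agent plus time with Benjamini-Hochberg adjustment at 0.05. All genes shared a standard error of 0.22 for agents and 0.18 for time. No label says that a culture was repeated, and p-values measure only how these arrays scatter, possibly for technical reasons. The number of arrays limits the precision. Named members were, for each comparison, the 3 highest and 3 lowest, with added members that turn a result and up to 4 genes per list; some genes this rule names are not reported here, and RPS29 and RPL34 are ranked only where stated. The members, lists and rules were chosen with earlier results of these data known. The fit was tested on simulated data with less scatter than these arrays and no array-wide shifts. There it recovered 48.0% of LTD4 differences of 0.5 and 100% of those of 1.0 on the log2 scale. A missing call therefore says little about differences of 0.5 or less.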

Additional observations from a re-analysis of the deposited data

Results flagged for a closer look

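The median member difference between methanol and untreated was lower by 0.25 at 1 h than at 8 h (-0.25), with -0.19 at 1 h and 0.06 at 8 h; all tested genes had -0.21 and 0.27. For RPL19 the difference at 1 h minus that at 8 h was -1.50, from -0.23 and 1.27, and it rested on the untreated array at 8 h. Each time had 1 array per agent, so neither change between the times was tested.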

How the results depend on the processing

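Offsets, filters, scalings, an intensity trend, leaving out each array and leaving out rows on another chromosome were tried. The counts of members called for time and for LTD4 against methanol were 0 in all 16 alternatives. For methanol against untreated the count went from 1 to 3 with no filter (RPLP1 and RPS29 lower, RPL3L higher). RPL3L was under the background limit on every array, at 324 to 694. The count was 6 centred, 6 with quantile normalization and 6 with cyclic loess (RPL11 only centred, RPL23 only under quantile and loess). It was 3 with an eBayes trend (RPS29, RPLP1 and RPL13A lower). Centring also raised the calls over all tested genes, from 1.9% to 5.66% higher and from 0.363% to 5.44% lower. Shares of all genes are not given for any other setting, so those counts only describe the members. Leaving out an array gave 0 to 2: 0 without either methanol array, and 2 without untreated at 1 h (RPL19, RPS29) or at 8 h (RPLP1, RPS29). RPL19 turned to -0.16 without untreated at 8 h and was called at 1.20 without untreated at 1 h. The median for LTD4 minus methanol at 1 h was 0.13 with no filter, 0.02 centred, 0.01 quantile and 0.03 loess, and at 8 h 0.03, 0.15, 0.06 and 0.05. For methanol minus untreated it was -0.17, 0.01, 0.02 and 0.05 at 1 h, and 0.10, -0.22, -0.03 and -0.04 at 8 h, in the same order. The LTD4 medians kept their sign in these settings, while the methanol medians turned under the 3 scalings; the cause was not tested. A second deposited table equalled the first in all 199782 values within 1e-06. No paired analysis was possible because the labels give no replicate numbers and each group is 1 array. Signal near background limits RPS29, RPL34 and the 7 members not tested. Outside the members it limits LARP1, GRWD1, RPL7L1, PDCD2, LTV1 and most of the small nucleolar RNAs.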
